A study of Homo sapiens with 8 samples.

Results

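RNA-seq levels of 38 genes of glycolysis and of the cell's response to low oxygen were followed in colon cancer cells that were grown with or without conditioned medium (CM). The genes were chosen by symbol and matched to the Ensembl identifiers of the count tables, which hold 64253 genes. All 38 were found, and all 38 were among the 20305 genes that passed the filter on low counts and were tested. HCT-8 is an established line of human colon cancer that responds to the drug 5-fluorouracil (5-FU), and HCT-8/FU is the 5-FU-resistant counterpart. Both lines were grown in unconditioned medium, and HCT-8 cells were also grown in CM of HCT-8 or, in a further group, CM of HCT-8/FU, which is medium collected from the named cells after 48 h of culture. The 4 groups had 2 replicates each, 8 libraries in all. No source used here says whether replicates were separate cultures, so that p-values measure the spread between these libraries, which may be technical. How long HCT-8 cells were kept in CM and whether HCT-8/FU is 1 clone or a pool is stated in no source used here. The labels name Ham's F12 as the basal medium, whereas the study's methods name RPMI 1640. The sources used here do not settle which applied.

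Glycolysis splits glucose into pyruvate, and lactate dehydrogenase can then turn pyruvate into lactate, which leaves the cell through monocarboxylate transporters. When oxygen is scarce, prolyl hydroxylases of the EGLN family stop marking the HIF-1 alpha protein for destruction by the VHL ubiquitin ligase, and HIF-1 binds a short core sequence near its target genes. Those targets include most glycolytic enzymes, glucose transporters, the EGLN genes themselves and genes for blood vessel growth, pH control, collagen hydroxylation and mitophagy. Because this control acts on the protein, the level of HIF1A mRNA does not report HIF-1 activity. Spent medium holds less glucose and more lactate than fresh medium, and TXNIP is a glucose-responsive brake on glucose uptake. The comparisons ask how far these genes differ in CM of sensitive or resistant cells, and between the lines.

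The libraries held between 5804124 and 34881349 counts on genes. Records not aligned made up 25.12%, 19.96% and 29.58% of HCT-8 replicate 1, HCT-8/FU replicate 2 and CM of HCT-8 replicate 1, against 3.58% to 4.43% in the others. Replicates differed by more than sampling noise. Of 11 markers of colon epithelial cells, 10 were above 1 CPM in every library, while CEACAM5 stayed under 1 CPM in every library. The fibroblast marker COL1A2 and the leukocyte markers PTPRC and CD3E were at 0 throughout. The summed markers of fibroblasts ranged from 8.19 to 13.8 CPM, those of endothelial cells from 1.27 to 2.45 CPM and those of leukocytes from 0.621 to 2.15 CPM, against at least 9487 CPM for the epithelial list. In bulk RNA, fewer cells with a transcript and less transcript per cell cannot be told apart. CPM values are counts scaled to a common library size, after TMM scaling. A gene is said to rise or fall where its p, adjusted by the Benjamini-Hochberg method over all genes in edgeR's quasi-likelihood test, was at most 0.05, and is called where its change also reached 0.58 on the log2 scale. All changes are log2 fold changes with their standard error (SE), and n = 2 libraries per group. In the 4 comparisons of 2 groups, both libraries of 1 group lay above both of the other for 26.9% to 34.4% of all genes. They lay below for 27.1% to 34.5%. These shares stand beside each statement below that groups did not overlap.

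Per length of transcript, the levels of the 38 genes spanned more than 3 orders of magnitude in HCT-8 cells. GAPDH, the enzyme that oxidizes glyceraldehyde 3-phosphate, stood highest at 2487 ± 33.3 CPM per kb (SD, n = 2), and TXNIP stood lowest at 0.807 ± 0.205. The next levels were those of the enolase ENO1 at 793 ± 52.6, the pyruvate kinase PKM at 474 ± 29.4 and the lactate dehydrogenase LDHB at 440 ± 42.1 CPM per kb, where PKM and LDHB differed by less than the sum of their spreads. These 4 genes kept ranks 1 to 4 in every group. Among the hypoxia-induced genes, NDRG1 stood highest at 159 ± 4.59 CPM per kb, and BNIP3 stood lowest at 1.23 ± 0.308. The lengths are those of the canonical GENCODE 44 transcripts, so that a gene that uses another end or isoform has a shifted value.

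**Figure D1:**
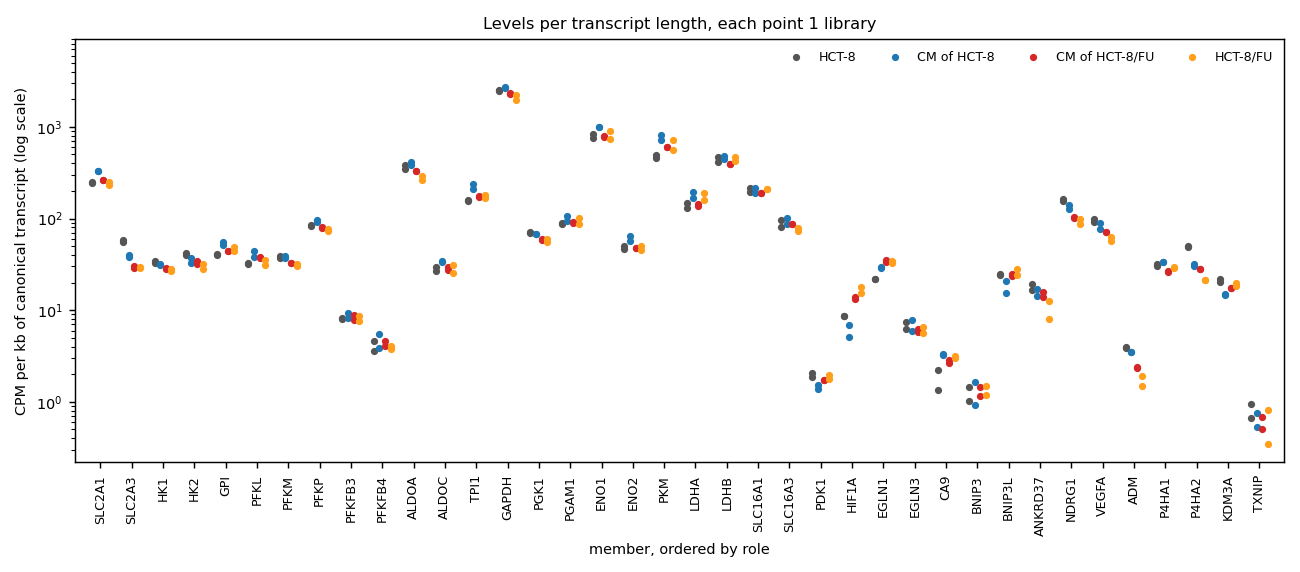
Level of each of the 38 genes in CPM per kb of its canonical transcript, on a log scale, ordered by role along the x axis; each point is 1 library and its color the group. GAPDH is highest and TXNIP lowest in each group, and SLC2A3, NDRG1, VEGFA, ADM and P4HA2 step down from HCT-8 to HCT-8/FU.

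Within a step, the share that each isoenzyme held of the summed level per kb was narrow. Hexokinase HK2 held 50.9% to 56.3% of the HK1 and HK2 total over the 8 libraries, and PFKP held 52.4% to 56.4% of the 3 phosphofructokinase genes. Aldolase and enolase were nearly all ALDOA, with 90.4% to 93.3%, and ENO1, with 93.8% to 94.7%. Other shares set HCT-8 apart from the rest. SLC2A3 held 18.4% to 18.9% of the SLC2A1 and SLC2A3 total in HCT-8, and 10.0% to 11.0% in the 6 other libraries. P4HA2 held 61.1% to 61.7% of the P4HA1 and P4HA2 total in HCT-8, 51.0% to 51.5% in CM of HCT-8/FU, 47.6% to 49.2% in CM of HCT-8 and 41.4% to 42.7% in HCT-8/FU. LDHA held 24.0% to 24.1% of the LDHA and LDHB total in HCT-8, and 26.1% to 28.7% in the 6 other libraries.

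Under CM of HCT-8, set against unconditioned medium, glycolytic enzymes of HCT-8 cells stood slightly higher and several other hypoxia-induced genes lower. PKM was called higher, and HIF1A and P4HA2, a collagen prolyl hydroxylase, were called lower. Of all genes tested, 3.86% were called higher and 4.29% lower, beside 1 and 2 of the 38. Without the fold threshold, 9 of the 38 rose and 7 fell, against 9.04% and 10.4% of all genes. All 7 of the 17 enzymes from hexokinase to lactate dehydrogenase that passed rose, namely GPI, PFKL, TPI1, ENO1, ENO2, PKM and LDHA, by 0.32 to 0.70. The median change over the 17 enzymes was 0.20, and over all genes 0.01. Of the 10 hypoxia-induced genes outside glycolysis and oxygen sensing, 4 fell (BNIP3L, NDRG1, P4HA2 and KDM3A), with a median of -0.20. The enzymes' count of 7 became 2 without HCT-8 replicate 2, which is also the library that edgeR took as its scaling reference, and 3 after a correction for GC content and exonic length.

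In CM of HCT-8/FU, against unconditioned medium, the members called were hypoxia-related genes, and no glycolytic enzyme was called. The glucose transporter SLC2A3, NDRG1, ADM and P4HA2 were called lower, and HIF1A and EGLN1 were called higher. Of all genes, 3.28% were called lower and 7.16% higher, beside 4 and 2 of the 38. Without the fold threshold, 10 of the 38 fell and 3 rose, where 11.7% and 13% of all genes did. Of the 17 enzymes, HK1, HK2 and PGK1 fell and PKM rose, and the median was -0.01. A fit of only the groups compared had 6 lower and 3 higher enzymes, and 7144 of 19462 genes passed in it, in place of 5017 of 20305. The balance turned with the scaling. When TMM took CM of HCT-8 replicate 2 for its reference, 4 of the 38 fell and 5 rose, and 4 were called in place of 6. Of the enzymes none fell then, and PFKL, TPI1 and PKM rose. Over all genes the median went from 0.02 to 0.09, and 1742 fell and 3323 rose in place of 2385 and 2632. Without HCT-8 replicate 2, or without either library of CM of HCT-8/FU, 6 of the 38 passed in place of 13, and without HCT-8 replicate 1 there were 7.

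Between the media, that is CM of HCT-8/FU compared with CM of HCT-8, HIF1A was the 1 member called, and it was higher by 1.23. All genes were called higher in 7.97% and lower in 1.28%. Without the fold threshold, 15 of the 38 fell and 4 rose (HIF1A, EGLN1, BNIP3L and KDM3A), beside 8.49% and 11.2% of all genes. The 15 that fell were small changes of at most 0.39 in size, and 11 of them were glycolytic enzymes. All 17 enzymes stood lower in CM of HCT-8/FU, with a median of -0.24 against -0.06 over all genes. With CM of HCT-8 replicate 2 as the scaling reference 1 enzyme stood higher and the median was -0.16. Without either replicate of CM of HCT-8/FU, 4 of the 38 passed and no enzyme was among them. The enzymes that passed were 1 without HCT-8 replicate 2, 4 with CM of HCT-8 replicate 2 as the scaling reference and 2 (LDHA and PGK1) after the correction for GC content and length.

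In HCT-8/FU against HCT-8, both in unconditioned medium, 8 of the 38 were called. SLC2A3, ANKRD37, NDRG1, VEGFA, ADM and P4HA2 were lower, and HIF1A and EGLN1 were higher. Among all genes, 8.12% were called lower and 13.2% higher. Without the fold threshold, 12 fell and 4 rose, beside 18.1% and 18.6% of all genes. Smaller changes were found in the enzymes, where HK1, HK2, PFKM, ALDOA, GAPDH and PGK1 fell by 0.25 to 0.43, and PKM and LDHA rose by 0.42 and 0.32. After the GC and length correction HK2 and PGK1 fell and GPI, TPI1 and PKM rose, and the median over the enzymes turned from -0.01 to 0.12. With the other scaling reference 3 enzymes fell and 4 rose, and 9 of the 38 fell and 7 rose. Of all genes, 2840 fell and 4402 rose then, in place of 3672 and 3770. Neither PKM nor LDHA passed without HCT-8 replicate 2 or without HCT-8/FU replicate 2. This comparison and both comparisons of CM with unconditioned medium share the 2 HCT-8 libraries. Genes called in several of them are therefore not independent findings, and their overlap was not tested.

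**Figure D2:**
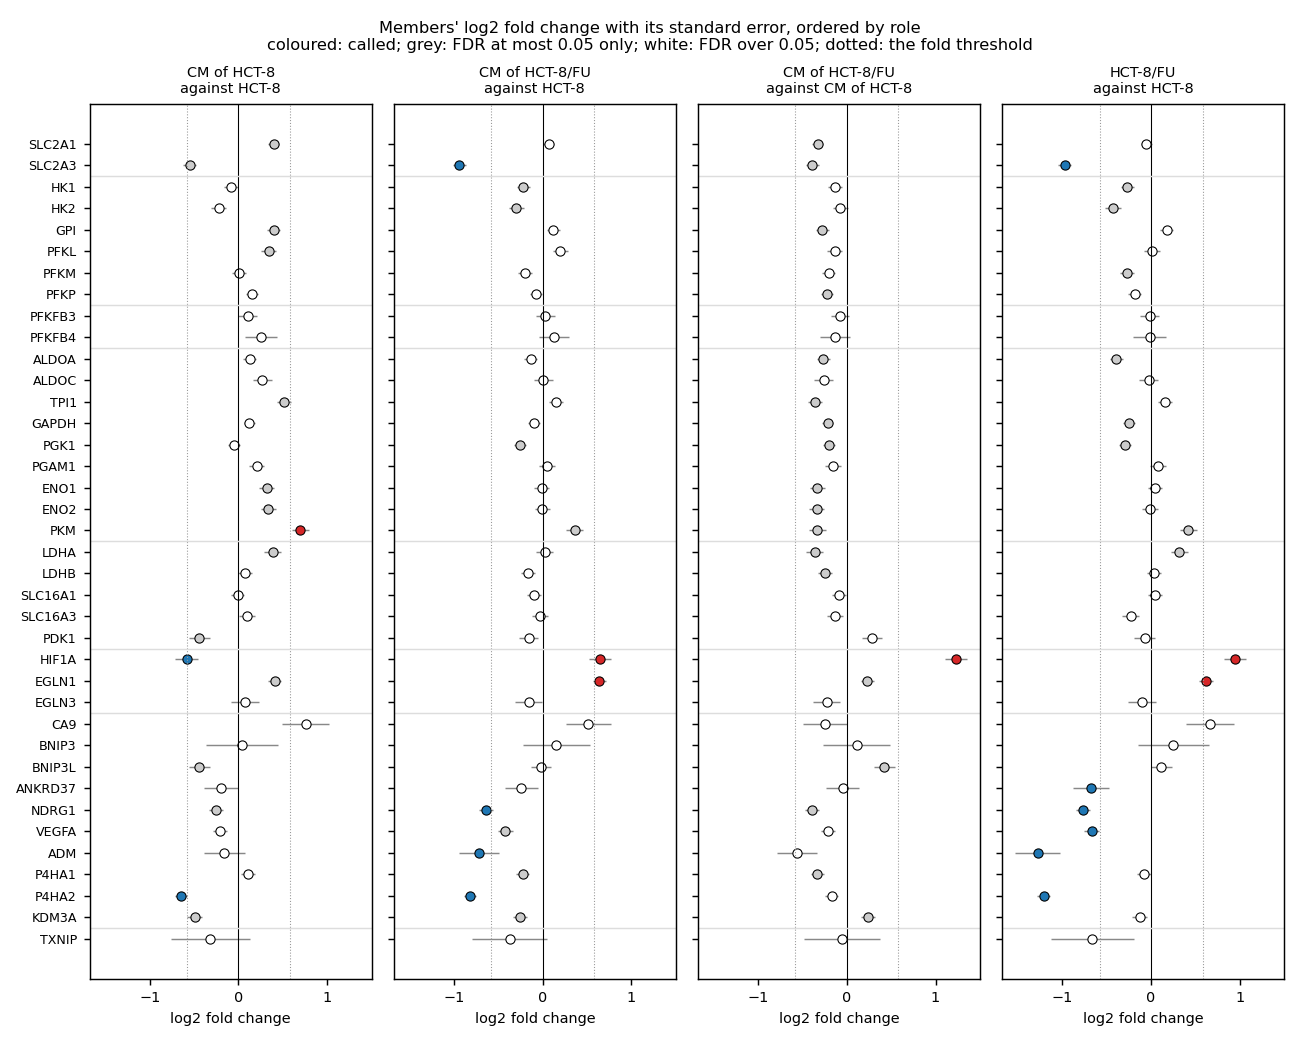
Log2 fold change of each member (y axis, by role) in 4 comparisons, with bars of 1 SE. Colored points are called, grey points passed an adjusted p of 0.05 only and white points did not, and dotted lines mark 0.58. In the first panel 14 of the 17 enzymes lie right of 0, with HK1, HK2 and PGK1 left of it, and in the third all 17 lie left of 0, and P4HA2 lies at -0.65, -0.82, -0.17 and -1.21 from left to right.

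To show the core sequence through which HIF-1 acts, the 250 bases before the transcription start are printed for 6 selected members. All 6 have an entry in the RefSeq table of GRCh38.p14: 2 genes of oxygen sensing, LDHA, and 3 hypoxia-induced genes called lower. PKM, which was called in CM of HCT-8, has a window that holds neither ACGTG nor GCGTG and is not printed. Capitals mark ACGTG or GCGTG read on either strand. The sequence CACGTG holds ACGTG on both strands and counts for both. Of the 38 members, 33 have an entry, and SLC2A3, SLC16A1, BNIP3L, NDRG1 and VEGFA have none. Where a gene has several starts, the start nearest to the GENCODE 44 gene start was taken. ACGTG was present in 13 of 33 members, 39.4%, and in 18.5% of all 35116 windows of this length. Either sequence was present in 21 members, 63.6%, and in 43.2% of all windows. Members count by 1 window each and the whole set by every window, so that the shares are not like for like. The members were also chosen as genes of glycolysis and of low oxygen. The windows of EGLN3, PGK1 and LDHB lie 511700, 193509 and 100015 bases from the GENCODE 44 start. The windows are chr14:61695263-61695512 on the plus strand for HIF1A, chr1:231422288-231422537 on the minus strand for EGLN1, chr11:18394313-18394562 on the plus strand for LDHA, chr4:185396591-185396840 on the plus strand for ANKRD37, chr11:10304823-10305072 on the plus strand for ADM and chr5:132227092-132227341 on the minus strand for P4HA2. LDHA holds ACGTG 5 times, ANKRD37 3 times and EGLN1 1 time, HIF1A and ADM hold GCGTG 1 time each, and the window of P4HA2 holds neither. That window lies 68224 bases from the GENCODE 44 start of P4HA2, and the window of ANKRD37 820 bases from its start, and whether these windows are the promoters in use was not tested.
HIF1A: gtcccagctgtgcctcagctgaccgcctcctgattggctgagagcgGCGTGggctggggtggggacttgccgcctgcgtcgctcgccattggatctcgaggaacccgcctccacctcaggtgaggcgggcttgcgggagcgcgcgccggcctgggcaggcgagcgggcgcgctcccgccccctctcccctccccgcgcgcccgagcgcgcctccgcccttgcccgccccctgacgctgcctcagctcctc
EGLN1: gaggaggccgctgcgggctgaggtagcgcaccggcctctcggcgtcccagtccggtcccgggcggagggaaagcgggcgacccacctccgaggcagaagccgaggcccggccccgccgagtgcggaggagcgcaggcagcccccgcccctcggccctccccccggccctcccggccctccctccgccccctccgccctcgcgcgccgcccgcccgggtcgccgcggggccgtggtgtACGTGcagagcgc
LDHA: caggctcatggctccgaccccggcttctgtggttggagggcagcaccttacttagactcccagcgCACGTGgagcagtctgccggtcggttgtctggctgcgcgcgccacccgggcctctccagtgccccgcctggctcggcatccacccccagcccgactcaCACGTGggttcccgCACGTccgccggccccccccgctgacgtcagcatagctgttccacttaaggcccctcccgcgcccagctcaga
ANKRD37: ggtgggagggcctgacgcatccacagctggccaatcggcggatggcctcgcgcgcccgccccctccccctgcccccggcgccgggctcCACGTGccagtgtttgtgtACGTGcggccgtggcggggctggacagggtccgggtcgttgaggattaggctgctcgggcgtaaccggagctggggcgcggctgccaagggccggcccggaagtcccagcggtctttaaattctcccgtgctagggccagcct
ADM: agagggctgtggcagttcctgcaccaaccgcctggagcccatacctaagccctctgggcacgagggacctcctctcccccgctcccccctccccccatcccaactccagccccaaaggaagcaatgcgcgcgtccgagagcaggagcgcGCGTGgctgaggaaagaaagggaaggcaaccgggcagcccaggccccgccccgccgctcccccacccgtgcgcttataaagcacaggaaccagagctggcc
P4HA2: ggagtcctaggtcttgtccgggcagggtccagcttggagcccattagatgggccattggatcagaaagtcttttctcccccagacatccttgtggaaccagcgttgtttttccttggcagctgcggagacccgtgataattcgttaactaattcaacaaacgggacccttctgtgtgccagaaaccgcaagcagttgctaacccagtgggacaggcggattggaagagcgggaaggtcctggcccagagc

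Of the glucose transporters, 2 are listed, and they moved in opposite directions in CM of HCT-8. SLC2A3 (GLUT3), a high-affinity transporter, had 226 and 213 CPM in HCT-8, 154 and 145 under CM of HCT-8, 116 and 112 under CM of HCT-8/FU, and 113 and 110 in HCT-8/FU. Both HCT-8 libraries lay above all others, and CM of HCT-8 lay between them and the rest. SLC2A3 fell by 0.55 ± 0.07 in CM of HCT-8 (edgeR adjusted p = 0.00013), and was called at -0.94 ± 0.07 in CM of HCT-8/FU (edgeR adjusted p = 9.4e-07), 0.520 times the HCT-8 level. In HCT-8/FU the change was -0.97 ± 0.08 (edgeR adjusted p = 1.8e-07). The last 2 calls held in all 18 alternative fits. SLC2A1 (GLUT1), the basal transporter of most cells, had 854 and 835 CPM in HCT-8, 1119 and 1109 under CM of HCT-8, 887 and 884 under CM of HCT-8/FU, and 840 and 787 in HCT-8/FU. It rose by 0.40 ± 0.06 in CM of HCT-8 (edgeR adjusted p = 0.00047), and fell by 0.33 ± 0.06 between the media (edgeR adjusted p = 0.0016). Between the media SLC2A3 fell too, by 0.39. The SLC2A1 changes in CM of HCT-8/FU and HCT-8/FU, 0.07 and -0.05, did not pass.

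In the upper part of glycolysis, which spends ATP to prime the sugar, the 6 enzymes changed by less than the fold threshold in every comparison. Hexokinase HK2 had 223 and 236 CPM in HCT-8, 184 and 208 under CM of HCT-8, 193 and 181 under CM of HCT-8/FU, and 182 and 158 in HCT-8/FU. Every library of the 3 other groups lay below both HCT-8 libraries, and HK2 fell by 0.43 ± 0.09 in HCT-8/FU and by 0.30 ± 0.09 in CM of HCT-8/FU (edgeR adjusted p = 0.0011 and 0.018). HK1 fell in the same 2 comparisons, by 0.27 and 0.22. Glucose 6-phosphate isomerase GPI rose by 0.40 ± 0.07 in CM of HCT-8 (edgeR adjusted p = 0.0016) and PFKL, 1 of 3 phosphofructokinase genes, by 0.34 ± 0.09 (edgeR adjusted p = 0.015). PFKFB3 and PFKFB4, which set the level of fructose 2,6-bisphosphate and so the speed of phosphofructokinase, did not pass in any comparison. Their libraries ranged from 34.4 to 41.5 CPM and from 12.6 to 19.1 CPM, and their groups overlapped in all 4 comparisons.

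Of the 9 genes from aldolase to pyruvate kinase, PKM was the 1 gene called in any of the 4 comparisons. PKM makes pyruvate and ATP in the last step, and had 1141 and 1046 CPM in HCT-8, 1883 and 1658 under CM of HCT-8, 1406 and 1407 under CM of HCT-8/FU, and 1289 and 1639 in HCT-8/FU. Both HCT-8 libraries were the lowest of the 8 and both libraries of CM of HCT-8 the highest. PKM was called at 0.70 ± 0.10 in CM of HCT-8 (edgeR adjusted p = 0.00017), 1.62-fold, and the call was lost without HCT-8 replicate 2, at 0.57. It rose by 0.36 ± 0.10 in CM of HCT-8/FU and by 0.42 ± 0.10 in HCT-8/FU (edgeR adjusted p = 0.012 and 0.0029). Gene counts cannot tell the PKM1 and PKM2 isoforms apart. TPI1, which interconverts the triose phosphates, rose by 0.51 ± 0.08 in CM of HCT-8 (edgeR adjusted p = 0.00039), and stood at 323 and 282 CPM there against 216 and 208 in HCT-8. ENO1 and ENO2 rose with it by 0.32 and 0.34. ALDOA, GAPDH and PGK1, the ATP-forming phosphoglycerate kinase, fell in HCT-8/FU by 0.39, 0.25 and 0.30. PGK1 fell by 0.25 in CM of HCT-8/FU too. PGAM1 and ALDOC did not pass in any comparison, and changed by -0.26 to 0.27.

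At the branch between lactate and the mitochondria, LDHA, whose product favors making lactate, had 333 and 291 CPM in HCT-8, 434 and 380 under CM of HCT-8, 321 and 310 under CM of HCT-8/FU, and 357 and 421 in HCT-8/FU. CM of HCT-8 and HCT-8/FU each lay above HCT-8, and CM of HCT-8/FU overlapped HCT-8. LDHA rose by 0.39 ± 0.09 in CM of HCT-8 (edgeR adjusted p = 0.0093) and by 0.32 ± 0.09 in HCT-8/FU (edgeR adjusted p = 0.015), and its change in CM of HCT-8/FU was 0.02 ± 0.09. In HCT-8/FU it did not pass after the GC and length correction, at 0.12, nor when HCT-8 replicate 2 was dropped or when HCT-8/FU replicate 2 was, at 0.19 each. LDHB did not pass against HCT-8, with changes of -0.16 to 0.08, and fell by 0.24 between the media. The lactate exporters SLC16A1 (MCT1) and SLC16A3 (MCT4) did not pass in any comparison, with changes of -0.23 to 0.10. PDK1, which shuts pyruvate dehydrogenase, fell by 0.44 ± 0.12 in CM of HCT-8 (edgeR adjusted p = 0.017). After the correction for GC content and length PDK1 did not pass there, at -0.17, and was called lower in HCT-8/FU, at -0.61, where the uncorrected change was -0.07.

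The members called higher in CM of HCT-8/FU and in HCT-8/FU were both genes of oxygen sensing. HIF1A, the oxygen-regulated subunit of HIF-1, had 34.5 and 34.0 CPM in HCT-8, 27.2 and 19.9 under CM of HCT-8, 54.8 and 52.3 under CM of HCT-8/FU, and 70.4 and 60.2 in HCT-8/FU. No 2 groups overlapped, rising from CM of HCT-8 over HCT-8 and CM of HCT-8/FU to HCT-8/FU. HIF1A was called at -0.59 ± 0.13 in CM of HCT-8 (edgeR adjusted p = 0.0062), at 0.65 ± 0.12 in CM of HCT-8/FU (edgeR adjusted p = 0.0012) and at 0.95 ± 0.13 in HCT-8/FU (edgeR adjusted p = 2.6e-05). Between the media it was called at 1.23 ± 0.13, 2.35-fold (edgeR adjusted p = 7.2e-06). HIF1A has the lowest exonic GC content of the 38, 38.65%, and after the correction for GC content and length 1 of its 4 calls, that between the media, remained, at 0.76. The other changes then were -0.38, 0.38 and 0.43. The call in CM of HCT-8 was also lost in 4 other fits, among them without CM of HCT-8 replicate 2, at -0.34. Antisense genes lie opposite 8.39% of its exonic bases, and whether the counting used strand was not given in the sources used here.

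EGLN1 (PHD2), the main oxygen sensor that marks HIF-1 alpha, had 95.8 and 94.8 CPM in HCT-8, 129 and 124 under CM of HCT-8, 145 and 152 under CM of HCT-8/FU, and 144 and 150 in HCT-8/FU. HCT-8 lay below all other libraries, and CM of HCT-8 lay between HCT-8 and the 4 libraries of CM of HCT-8/FU and HCT-8/FU. EGLN1 rose by 0.41 ± 0.07 in CM of HCT-8 (edgeR adjusted p = 0.0013), and was called at 0.64 ± 0.07 in CM of HCT-8/FU (edgeR adjusted p = 2.3e-05) and at 0.62 ± 0.07 in HCT-8/FU (edgeR adjusted p = 1.1e-05). The correction for GC content and length left the change in CM of HCT-8/FU at 0.61 and took that in HCT-8/FU to 0.54, under the fold threshold. EGLN3, the most hypoxia-inducible member of the family in many cells, did not pass in any comparison, with 15.2 to 21.1 CPM over all libraries.

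P4HA2, which hydroxylates collagen prolines in the endoplasmic reticulum, was called lower in each of the 3 groups set against HCT-8. It had 224 and 225 CPM in HCT-8, 140 and 147 under CM of HCT-8, 127 and 127 under CM of HCT-8/FU, and 98.0 and 96.3 in HCT-8/FU. The 4 groups did not overlap, in that order, beside the shares of all genes given above for 2 groups. All 3 comparisons with HCT-8 share its 2 libraries. The changes were -0.65 ± 0.07 in CM of HCT-8 (edgeR adjusted p = 2.6e-05), -0.82 ± 0.07 in CM of HCT-8/FU (edgeR adjusted p = 2.2e-06) and -1.21 ± 0.07 in HCT-8/FU (edgeR adjusted p = 2.2e-08). Each call held in all 18 alternative fits. Its paralog P4HA1 changed by 0.11, -0.23 and -0.08 in the same comparisons and fell between the media by 0.33 ± 0.08 (edgeR adjusted p = 0.006). After the correction for GC content and length P4HA1, with 40.19% GC, was called lower between the media, at -0.67.

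NDRG1, a stress-responsive gene linked to differentiation, had 491 and 472 CPM in HCT-8, 426 and 385 under CM of HCT-8, 306 and 312 under CM of HCT-8/FU, and 300 and 263 in HCT-8/FU. The 4 groups did not overlap. NDRG1 fell by 0.25 ± 0.08 in CM of HCT-8 (edgeR adjusted p = 0.036) and was called at -0.64 ± 0.08 in CM of HCT-8/FU (edgeR adjusted p = 4e-05) and -0.77 ± 0.08 in HCT-8/FU (edgeR adjusted p = 2.4e-06). With CM of HCT-8 replicate 2 as the scaling reference the change in CM of HCT-8/FU was -0.56, under the fold threshold. VEGFA, the growth factor for blood vessels, had 356 and 331 CPM in HCT-8, 321 and 275 under CM of HCT-8, 256 and 256 under CM of HCT-8/FU, and 225 and 206 in HCT-8/FU. Again the 4 groups did not overlap, and VEGFA was called in HCT-8/FU at -0.67 ± 0.08 (edgeR adjusted p = 1.5e-05) and fell by 0.42 ± 0.08 in CM of HCT-8/FU (edgeR adjusted p = 0.0015).

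ADM, which encodes the vasodilator peptide adrenomedullin, was a low gene with 5.79 and 5.88 CPM in HCT-8, 5.18 and 5.27 under CM of HCT-8, 3.50 and 3.60 under CM of HCT-8/FU, and 2.23 and 2.84 in HCT-8/FU. Behind these lay 17 to 199 counts per library. The groups stood in that descending order without overlap, and ADM was called at -1.28 ± 0.26 in HCT-8/FU (edgeR adjusted p = 0.001), 0.412 times the HCT-8 level, in all 18 alternative fits. In CM of HCT-8/FU it was called at -0.72 ± 0.23 (edgeR adjusted p = 0.03), but in 10 of 18 alternative fits, with adjusted p up to 0.207. ANKRD37, an ankyrin-repeat gene induced by HIF-1, had 15.3 and 12.9 CPM in HCT-8, 13.4 and 11.2 under CM of HCT-8, 12.4 and 11.0 under CM of HCT-8/FU, and 9.80 and 6.35 in HCT-8/FU. HCT-8/FU lay below the other groups, and ANKRD37 was called there at -0.68 ± 0.20 (edgeR adjusted p = 0.014), a call lost without HCT-8 replicate 1, at -0.58, or without HCT-8/FU replicate 2, at -0.50. UFSP2 lies opposite 40.35% of its exonic bases.

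Of the remaining hypoxia-induced genes, KDM3A and BNIP3L fell in CM of HCT-8. KDM3A, a histone H3 lysine 9 demethylase, had 101 and 94.4 CPM in HCT-8, 69.3 and 69.0 under CM of HCT-8, 82.2 and 80.9 under CM of HCT-8/FU, and 91.99 and 85.24 in HCT-8/FU. CM of HCT-8 was the lowest group and CM of HCT-8/FU the next, and KDM3A fell by 0.49 ± 0.08 and 0.26 ± 0.08 in them (edgeR adjusted p = 0.00064 and 0.027). Between the media KDM3A rose by 0.24, a sign that turned to -0.09 after the correction for GC content and length. BNIP3L, a mitophagy receptor, fell by 0.44 ± 0.12 in CM of HCT-8 and rose by 0.42 ± 0.12 between the media (edgeR adjusted p = 0.017 and 0.018). After the correction these were -0.27 and 0.01 and neither passed. CA9, the cell-surface carbonic anhydrase used as a marker of hypoxia, had 2.11 and 3.43 CPM in HCT-8, 5.18 and 4.97 under CM of HCT-8, 4.07 and 4.44 under CM of HCT-8/FU, and 4.65 and 4.85 in HCT-8/FU. Both HCT-8 libraries were the lowest, but with 16 to 140 counts per library no change passed, and the change of 0.76 ± 0.26 in CM of HCT-8 had an edgeR adjusted p of 0.057. ARHGEF39 lies opposite 35.73% of CA9's exonic bases. BNIP3 was at 1.43 to 2.53 CPM with 11 to 69 counts, and its 44 named pseudogenes held 64.4% as many counts, so that its level is uncertain.

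TXNIP had 2.76 and 1.92 CPM in HCT-8, 2.19 and 1.54 under CM of HCT-8, 1.99 and 1.46 under CM of HCT-8/FU, and 0.997 and 2.34 in HCT-8/FU, from 14 to 65 counts per library. All groups overlapped, and the changes of -0.66 to -0.06 had SEs of 0.42 to 0.47, so that no difference was detectable at this depth.

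**Figure D3:**
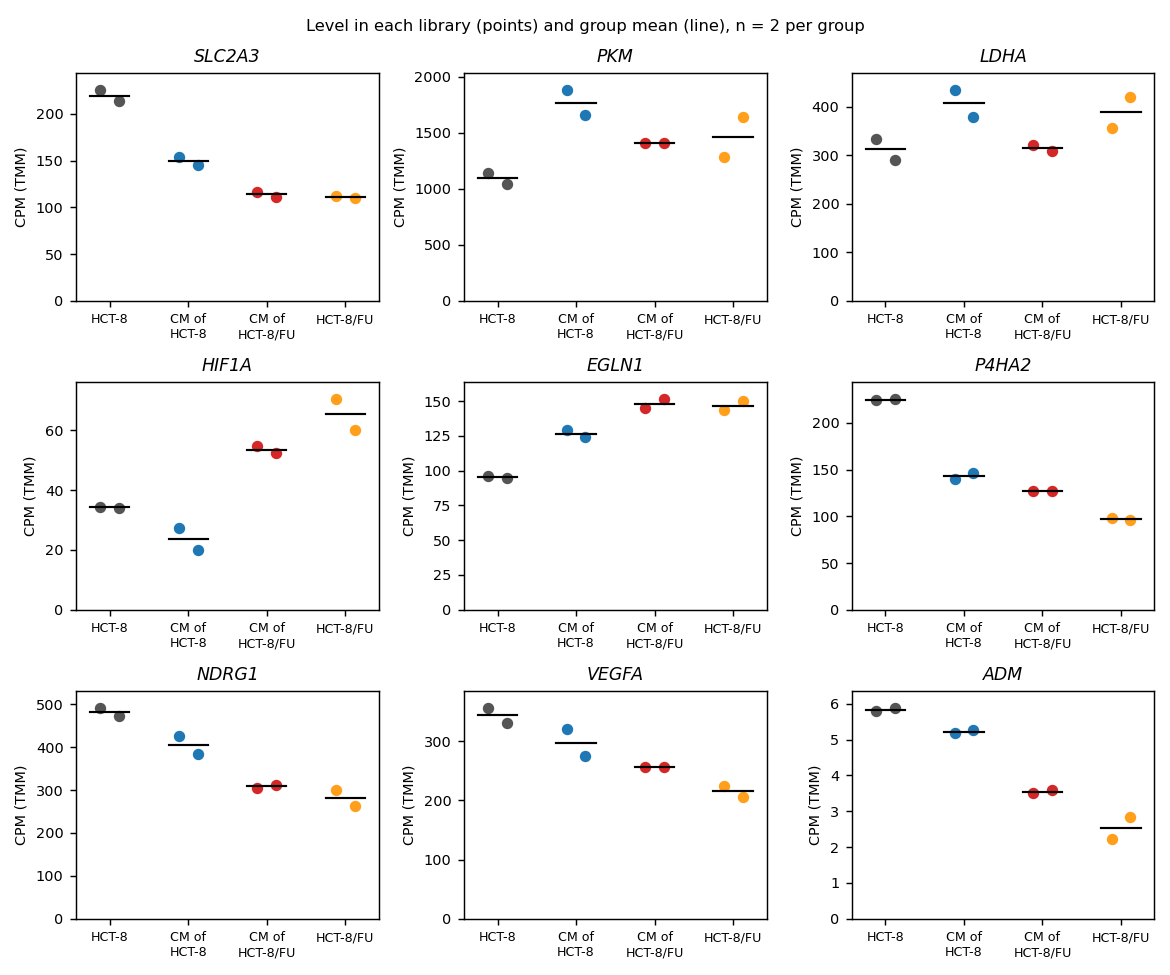
Level in CPM of 9 members (panels) in each library, with the y axis from 0 and a line at the mean of the 2 libraries of a group. SLC2A3, P4HA2, NDRG1, VEGFA and ADM step down from HCT-8 over CM of HCT-8 and CM of HCT-8/FU to HCT-8/FU or level off at CM of HCT-8/FU, HIF1A is lowest in CM of HCT-8, and PKM and LDHA are highest on average in CM of HCT-8.

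The difference between resistant and sensitive origin was itself compared between the cells and their media, as the change of HCT-8/FU against HCT-8 minus that between the media, 2 comparisons without a shared library. It was called for 4 members, 2 higher and 2 lower, where 3.55% and 4.14% of all genes were called. PKM and LDHA were higher in HCT-8/FU than in HCT-8 (0.42 and 0.32), and lower under CM of HCT-8/FU than under CM of HCT-8 (-0.33 and -0.37). The difference was 0.75 ± 0.14 and 0.68 ± 0.13 (edgeR adjusted p = 0.0021 and 0.0033). Against HCT-8, their changes in CM of HCT-8/FU were 0.36 and 0.02. P4HA2 was lower by 1.21 in resistant cells and by 0.17 between the media, a difference of -1.04 ± 0.10 (edgeR adjusted p = 1.2e-05). SLC2A3 differed by -0.58 ± 0.10 (edgeR adjusted p = 0.002). The difference for HIF1A, 0.95 against 1.23, was -0.28 ± 0.18 and did not pass (edgeR adjusted p = 0.38).

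Other genes of the pathway were listed with earlier results of these data known, and their counts stand against the shares of all genes given above. Of 6 tested regulators of HIF, 1 was called, ARNT2 lower in HCT-8/FU at -0.80, whereas EPAS1 (HIF-2 alpha) and VHL fell by 0.45 and 0.43 in CM of HCT-8/FU and by 0.56 and 0.54 in HCT-8/FU. Of 22 further HIF targets, 1 was called higher and 3 lower in CM of HCT-8, 3 lower in CM of HCT-8/FU, 1 higher between the media, and 2 higher and 3 lower in HCT-8/FU. All genes were called higher and lower in 3.86% and 4.29% in CM of HCT-8 and in 13.2% and 8.12% in HCT-8/FU. Under CM of HCT-8, 6 of the 22 passed the adjusted p alone, 1 higher and 5 lower, beside 9.04% and 10.4% of all genes. Under CM of HCT-8/FU 10 passed, 3 higher and 7 lower, where the shares were 13% and 11.7%. Between the media 5 passed, 3 higher and 2 lower, beside 11.2% and 8.49%. In HCT-8/FU, beside 18.6% and 18.1% of all genes, 10 passed, 3 higher and 7 lower. The largest of these was DDIT4 (REDD1), an inhibitor of mTORC1, at 411 and 421 CPM in HCT-8, 215 and 226 under CM of HCT-8, 191 and 191 under CM of HCT-8/FU, and 116 and 106 in HCT-8/FU. The 4 groups of DDIT4 did not overlap, and its changes against HCT-8 were -0.92 ± 0.07, -1.12 ± 0.07 and -1.90 ± 0.07 in that order (edgeR adjusted p = 1.6e-06, 2.2e-07 and 6.8e-10). RORA, a nuclear receptor, was called at -0.75 in CM of HCT-8 and at 1.25 between the media. It averaged 94.8 CPM in HCT-8, 57.3 under CM of HCT-8, 133.7 under CM of HCT-8/FU and 199.8 in HCT-8/FU. CA12 stood higher than in HCT-8 in the other groups, with averages of 38.8, 64.9, 56.4 and 69.9 CPM in the same order.

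Of 27 tested genes at branch points of glucose and pyruvate, 1 was called lower in CM of HCT-8, 1 higher and 1 lower in CM of HCT-8/FU, 1 higher between the media, and 3 higher and 3 lower in HCT-8/FU, where 13.2% and 8.12% of all genes were called. At the adjusted p alone 5 rose and 12 fell in HCT-8/FU, beside 18.6% and 18.1% of all genes. GPD2, the mitochondrial glycerol 3-phosphate dehydrogenase, was called at 0.69 ± 0.11 in CM of HCT-8/FU and at 1.25 ± 0.11 in HCT-8/FU (edgeR adjusted p = 0.0003 and 6e-07), with 19.6 and 20.3 CPM in HCT-8, 31.9 and 32.9 under CM of HCT-8/FU, and 44.9 and 52.1 in HCT-8/FU. PDK3, a paralog of PDK1, was called at 0.71 ± 0.17 between the media (edgeR adjusted p = 0.0069). Among genes that stood lower, PYGB averaged 171 CPM in HCT-8 and 76.3 in HCT-8/FU. PCK2 averaged 235 CPM in HCT-8, 156 under CM of HCT-8/FU and 113 in HCT-8/FU. PDP1 averaged 67.2 CPM in HCT-8 and 41.5 under CM of HCT-8. The lowest changes of the list were -0.69 in CM of HCT-8, -0.59 in CM of HCT-8/FU and -1.15 in HCT-8/FU. Of 5 genes of the MondoA glucose response, 1 was called in all, ARRDC3 higher in HCT-8/FU at 0.95. Of 11 markers of colon epithelial cells, 4 were called higher in CM of HCT-8, 3 under CM of HCT-8/FU and 4 in HCT-8/FU. Of all genes, 3.86%, 7.16% and 13.2% were called higher there. KRT20, CDX1 and VIL1 were called higher in all 3, which share the 2 HCT-8 libraries, and no marker was called lower. At the adjusted p alone, 7 markers rose and 0 fell in CM of HCT-8, and 6 rose and 2 fell in CM of HCT-8/FU. In HCT-8/FU 5 rose and 3 fell, and between the media 0 rose and 5 fell. The shares of all genes are those given above. The markers' part in the changes of the 38 genes was not tested.

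Base composition moved with the groups. The rank correlation of a gene's deviation in a library with its GC content was 0.05 and 0.21 in HCT-8, 0.37 and 0.53 under CM of HCT-8, -0.07 and -0.06 under CM of HCT-8/FU, and -0.49 and -0.45 in HCT-8/FU, across genes, which are not independent. The 38 members have a median GC content of 53.05%, against 49% over all genes, and range from 38.65% in HIF1A to 65.97% in SLC16A3. With the correction, members called were 2, 5, 2 and 8 in place of 3, 6, 1 and 8, in CM of HCT-8, in CM of HCT-8/FU, between the media and in HCT-8/FU. Members that passed without the fold threshold were 8, 12, 7 and 18 in place of 16, 13, 19 and 16, in the same order. The 8 called in HCT-8/FU were 1 higher and 7 lower with the correction, in place of 2 and 6. HIF1A and EGLN1 were no longer among them. Over all genes the counts changed too. With the correction 1089, 1760, 954 and 3046 of 19857 were called, in place of 1655, 2120, 1878 and 4325 of 20305. Without the fold threshold 2409, 4169, 1977 and 5614 passed, in place of 3949, 5017, 4005 and 7442. The part of base composition in the members' changes was not tested beyond this.

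**Figure D4:**
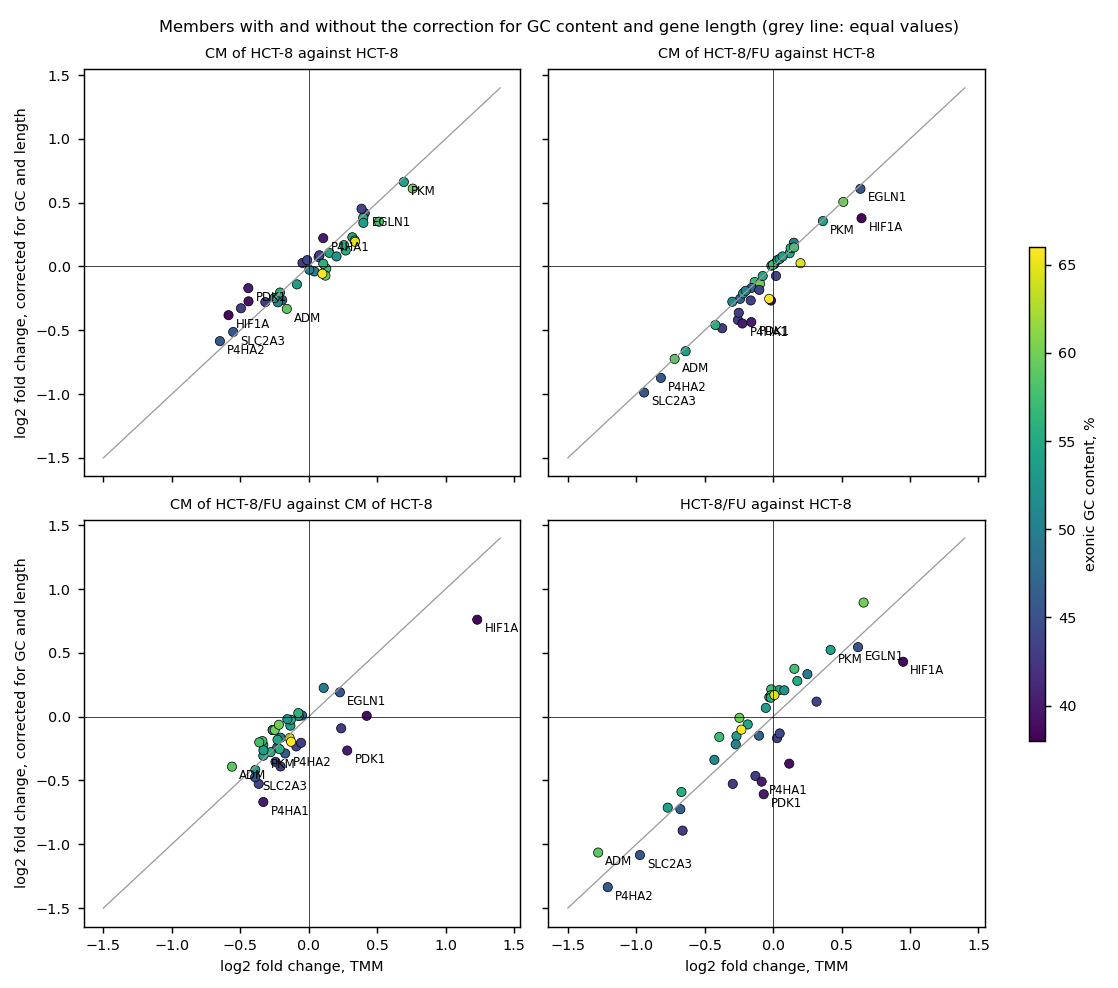
Log2 fold change of the 38 members without (x axis) and with (y axis) the GC and length correction in 4 comparisons, colored by exonic GC content, with a grey line where both are equal. P4HA2 and SLC2A3 stay near the line, while HIF1A, with the lowest GC content, moves from 1.23 to 0.76 between the media and from 0.95 to 0.43 in HCT-8/FU against HCT-8.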

How the data were processed

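RNA-seq of 8 libraries in 4 groups was analysed. Per the labels and the study's methods, the authors aligned reads to GRCh38 with HISAT2, sorted them with SAMtools 1.18 and counted them per gene with HTSeq 0.11.2 on an Ensembl annotation. The deposited values are raw counts, 1 table a library. The authors' own DESeq2 1.30.0 tables hold fold changes and p-values of their comparisons and were not used. Records without a gene (33.7% to 49.6% no feature, 3.58% to 29.6% not aligned) stayed out of library sizes. Counts were fitted in R 4.3.3 with edgeR 4.0.16 (TMM, filterByExpr with a minimum count of 10, group means of all 8 libraries, quasi-likelihood test, Benjamini-Hochberg adjustment over 20305 genes). The main fit, DESeq2 1.42.0, the correction for GC content and length and the replicate block were tested on simulated data. Those data were given no GC trend, and the other alternatives were not tested on them. The correction for GC content and length subtracts a spline with 5 degrees of freedom per library, whatever the origin of the trend. Annotation came from GENCODE 44, which held 56105 of the 64253 identifiers, and promoter sequences from RefSeq. Members and lists were chosen with earlier results of these data known. Named were all members, in order of role, those called with their value in every library. From other lists, some of the larger called changes were named, not all. EPAS1, VHL, ARNT2 and ARRDC3, and the counts without a fold threshold as results of their own, were added after values were seen.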

Additional observations from a re-analysis of the deposited data

Results flagged for a closer look

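For 4 members the change of HCT-8/FU against HCT-8 differed from that between the 2 conditioned media (CM of HCT-8/FU compared with CM of HCT-8) by a test of the difference itself. The difference was 0.75 for PKM and 0.68 for LDHA. Both were higher in HCT-8/FU than in HCT-8, and lower under CM of HCT-8/FU than under CM of HCT-8. It was -0.58 for SLC2A3 and -1.04 for P4HA2, both lower to a larger extent in resistant cells. P4HA2 was called in all 17 alternative fits, PKM in 15, LDHA in 13 and SLC2A3 in 11. PKM was at 0.60 (adjusted p = 0.0565 by edgeR) without HCT-8 replicate 2 and at 0.56 without HCT-8/FU replicate 2. LDHA was at 0.50 (adjusted p = 0.0893 by edgeR) without HCT-8 replicate 2, 0.55 without HCT-8/FU replicate 2 and 0.57 without CM of HCT-8 replicate 1 or where libraries with a not-aligned share over 15% had a term of their own. SLC2A3 stood at the fold threshold and ranged from -0.71 to -0.55, among them -0.56 where HCT-8 replicate 1 was left out, -0.58 for HCT-8/FU replicate 2, -0.55 for CM of HCT-8 replicate 2 and -0.56 for CM of HCT-8/FU replicate 1.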

How the results depend on the processing

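Under the 18 alternative fits (17 for the difference of comparisons), each of the 73 changes that passed an adjusted p of 0.05 kept its sign, except KDM3A between the media, at -0.09 with the correction for GC content and length and also with that correction and the replicate block. Over these changes, 1254 values stayed on their side of the call (adjusted p and fold together), 36 lost the call and 13 gained it. Without the fold threshold the members called became 16 in CM of HCT-8, 13 in CM of HCT-8/FU, 19 between the media, 16 in HCT-8/FU and 9 for the difference. With the correction, alone or with the block, 2 were called between the media. Leaving out each library in turn gave 2 to 5, 5 to 6, 1 to 2, 7 to 9 and 1 to 4 members called, in the same order, and 1 for the difference without HCT-8/FU replicate 2. Past the adjusted p alone, 16, 13, 19, 16 and 9 became 8, 12, 7, 18 and 5 with the correction. Over all genes, 3949, 5017, 4005, 7442 and 2350 became 2409, 4169, 1977, 5614 and 1661. With correction and block, the members that passed were 8, 6 and 5 in CM of HCT-8, between the media and for the difference. Between the media they were 12 with DESeq2's size factors, beside 3316 of 20305 genes, and 11 with only the groups compared, beside 2959 of 19295. Leaving out each library in turn gave 8 to 18, 6 to 15, 4 to 19, 12 to 19 and 4 to 15, in the same order. In CM of HCT-8, 5 were called with the first library of that medium left out. Dropping HCT-8 replicate 2 also gave 5, and 8 past the adjusted p alone. In CM of HCT-8/FU, 7 passed when HCT-8 replicate 1 was dropped, and 6 when HCT-8 replicate 2 or either library of that medium was. Between the media 4 passed without either CM of HCT-8/FU library, 9 without HCT-8 replicate 2, and 2 were called without CM of HCT-8 replicate 1. For the difference, 14 and 15 passed without the respective CM of HCT-8 libraries, 5 without either CM of HCT-8/FU library and 4 without HCT-8 replicate 2. Counts over all genes also changed between fits, and the cause was not tested.

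The replicate numbers did not pair the libraries, with correlations of deviations from -0.12 to 0.13 between groups. The highest was between HCT-8 and CM of HCT-8, whose replicates 1 both had over 15% not aligned. The replicate block gave 3, 6, 1, 8 and 4 members called, as without it. With a term for libraries with over 15% not aligned, the members called were 4, 6, 1, 8 and 3. Past the adjusted p alone they were 20, 14, 22, 20 and 13, beside 5023, 5642, 4540, 8293 and 2970 of all genes. The limits are n = 2 per group, and low counts of ADM, CA9, BNIP3 and TXNIP, at 11 to 199 per library over all libraries. The shallowest library, HCT-8/FU replicate 2 with 5804124 counts, held 17, 29, 11 and 14 counts of them, in that order.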
